A study of Mus musculus with 4 samples.

Results

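*Scx*, *Mkx*, *Sox5*, *Sox6*, *Sox9*, *Runx2*, *Runx3*, *Sp7*, *Barx1* and *Nkx3-2*, transcription factors of tendon, cartilage and bone, were followed in single cells of fetal mouse leg muscle. They are 10 of the 32285 genes in the count tables and were chosen by name for their known roles in these tissues. Earlier results of these data were known when they were chosen. The 4 libraries were single-cell RNA-seq libraries of E18.5 leg muscles, with 2 from wild-type fetuses (WT) and 2 from *SYISL* knockout fetuses (KO) of the same litters. *SYISL* is a long non-coding RNA transcribed from within an intron of *Synpo2*, and heterozygous parents were mated so that both genotypes shared a mother. Muscles of each fetus were isolated separately, dissociated with trypsin and DNase I and freed of red blood cells, and the number of fetuses in a library was not given in the sources used here. No strain was named in the labels. With 2 libraries of each genotype, p-values measure the spread between these libraries only.

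Tendon, cartilage and bone cells descend from neighbouring mesenchyme and are told apart by a small set of DNA-binding proteins. Scleraxis (*Scx*), a basic helix-loop-helix factor, and Mohawk (*Mkx*), a homeodomain factor, act in tendon cells and on fibrillar collagen genes. SOX9 drives cartilage matrix genes together with SOX5 and SOX6, while RUNX2, RUNX3 and SP7 (osterix) act in hypertrophic cartilage and in bone-forming cells. *Barx1* and *Nkx3-2* encode homeodomain factors of joint and skeletal mesenchyme. Progenitors that carry both *Scx* and *Sox9* are known from the sites where tendon attaches to cartilage.

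Of the 10 genes, 6 had an entry in the RefSeq table of start-site windows (GRCm38.p6) and *Scx*, *Mkx*, *Sox9* and *Sp7* had none. Windows of 250 bases before the start were searched on both strands for TGTGGT (RUNX), ACAAAG or ACAATG (SOX) and CANNTG (E-box, bound by basic helix-loop-helix factors). Among 32851 windows, 14.0% held the RUNX letters, 25.2% the SOX letters and 66.2% an E-box. Windows of *Sox5* and *Sox6* are shown because both genes were high with *Sox9* in cartilage cells and each held a SOX match. That of *Runx3* is shown because it held 2 RUNX matches. *Runx3* had 2 starts in the table and *Sox6* had 6, and only the window of the most upstream one is shown. The other *Runx3* window held 0 RUNX matches, and the other *Sox6* windows held 0 to 4 SOX matches. The shares above are per window, not per gene. Letters are printed on the gene's strand, 5′ to 3′, with the SOX and RUNX matches in capitals and E-boxes left in lower case, and the 52 bases of the *Sox6* window that lie in an annotated exon are left out. A match describes the letters and is not a measured binding site.
Sox5, chr6:143947107-143947356, minus strand: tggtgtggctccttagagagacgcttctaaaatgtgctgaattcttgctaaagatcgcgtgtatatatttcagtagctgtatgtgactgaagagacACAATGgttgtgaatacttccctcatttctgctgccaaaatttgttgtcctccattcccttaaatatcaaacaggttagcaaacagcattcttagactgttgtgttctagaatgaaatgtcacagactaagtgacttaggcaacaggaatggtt
Sox6, chr7:116038797-116038994, minus strand: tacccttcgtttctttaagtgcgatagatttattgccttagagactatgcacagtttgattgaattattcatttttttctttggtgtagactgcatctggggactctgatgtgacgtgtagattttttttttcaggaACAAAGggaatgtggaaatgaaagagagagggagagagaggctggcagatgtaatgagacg
Runx3, chr4:135120395-135120644, plus strand: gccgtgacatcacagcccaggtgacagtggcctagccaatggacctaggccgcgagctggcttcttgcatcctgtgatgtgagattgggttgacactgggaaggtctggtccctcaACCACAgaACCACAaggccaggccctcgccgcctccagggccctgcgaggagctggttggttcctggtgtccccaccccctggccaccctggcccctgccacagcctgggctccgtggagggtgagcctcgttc
The *Sox5* window lies inside the gene as GENCODE annotates it, since the RefSeq start used is not the outermost one. Of the windows of the other 3 genes, that of *Runx2* held 1 RUNX match, but 170 of its 250 bases lie in an annotated exon. *Barx1* had none of the 3 motifs in a window with 85.6% G or C, and the *Nkx3-2* window was exon throughout.

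After filtering, 36969 of 41741 deposited cells were kept, 8177 to 10461 per library, with median depths of 9118 to 11427 unique molecular identifiers (UMIs) per cell. Cells were clustered without the 10 genes, and each cluster was named from fixed marker genes. Fibro-adipogenic progenitor-like (FAP-like) fibroblasts were 50.9% of kept cells, while 2299 cells were chondrocyte-like and 2100 tenocyte-like. Over 30 starts of the clustering the tenocyte-like class held 1245 to 5586 cells and the chondrocyte-like class 1375 to 4872, so values in these classes describe the one clustering used. Chondrocyte-like cells came unevenly from the libraries, with 398, 704, 182 and 1015 cells in WT replicates 1 and 2 and KO replicates 1 and 2, the order used for every set of 4 values here. In tenocyte-like cells 11 of 12 tendon markers and in chondrocyte-like cells 11 of 12 cartilage markers stood out from the other cells. *Tnmd*, a tendon membrane protein, had a mean of 1957 CPM (UMIs of the gene per 1000000 UMIs of the class in a library) in tenocyte-like cells against 56.7 in chondrocyte-like cells. Other tendon markers were higher in chondrocyte-like cells, such as *Col11a1* (3542 CPM against 1461 in tenocyte-like cells). Summed over the 12 tendon markers, tenocyte-like libraries had 8498 to 9359 CPM and chondrocyte-like libraries 5967 to 7756, a far smaller gap than for *Tnmd*. *Col2a1*, the main cartilage collagen, had 8094 CPM in chondrocyte-like cells against 130 in tenocyte-like cells. KO replicate 2 differed from the other libraries in sex-linked transcripts, with 131038 *Xist* UMIs against 0 to 5, and the part of this difference in any KO value was not tested. Libraries shared 21 to 41 cell barcodes per pair. *SYISL* itself was not analysed here, and its host gene *Synpo2* (9.03 to 10.9 CPM in all cells) does not check the deletion.

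*Scx* was the most sharply placed of the tendon factors. In tenocyte-like cells it measured 592.1, 540.7, 594.7 and 519.1 CPM, with a mean of 562 ± 37.7 (SD, n = 4 libraries, as for every SD of a CPM value here). This lay 17.0-fold above neutrophil-like cells, the next class, where the gene rested on only 39 UMIs. The tenocyte-like libraries did not overlap any other class, and WT and KO libraries were interleaved among themselves. *Scx* was found in 90.2% ± 3.32 of tenocyte-like cells as sequenced and in 81.8% ± 3.31 once each cell was thinned to 5000 UMIs. In endothelial cells, which should lack it, the thinned share was 1.64%, with median depths of 8664 to 9791 UMIs against 8347 to 10554 in tenocyte-like cells. Myogenic cells (28.2 ± 1.48 CPM) and chondrocyte-like cells (26.4 ± 0.214 CPM) were close to each other and both lay above endothelial cells (6.57 ± 3.19 CPM). FAP-like cells, at 6.84 ± 3.02 CPM, overlapped the endothelial level, and their thinned share of 2.25% was close to the macrophage share of 2.17%. Tenocyte-like cells therefore held a mean of 72.2% of all *Scx* UMIs although they were 4.60 to 6.53% of kept cells. *Scx* (chr15:76457452-76459458, plus strand, GRCm38) lies within *Bop1* on the opposite strand, and whether counting used strand was not given in the sources used here. *Bop1* measured 13.6 ± 2.41 CPM in tenocyte-like and 9.85 ± 1.13 CPM in chondrocyte-like cells.

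*Mkx* followed *Scx* but was less confined. Its levels in tenocyte-like cells were 210.7, 226.6, 183.9 and 168.3 CPM (197 ± 26.2), 5.10-fold above the next class, and its 2 KO values were the lowest. Chondrocyte-like cells came next at 38.7 ± 7.51 CPM, and FAP-like cells held 9.27 ± 3.94 CPM. Because FAP-like cells were so many, they still carried 24.6% of all *Mkx* UMIs, and tenocyte-like cells carried 58.1%.

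Tenocyte-like cells were not uniform in either factor. A group of 946 cells led by *Col22a1* and *Scn3a*, the former a collagen of tissue junctions, had 785, 757, 747 and 742 CPM of *Scx* and 161 ± 13.7 CPM of *Mkx*. A cycling group of 212 cells was as high in *Scx* (785 ± 92.3 CPM). In 325 cells led by *Chad*, a cartilage leucine-rich repeat protein, and *Bmp3*, the balance was different, with *Mkx* at 361, 439, 311 and 332 CPM and *Scx* at 437 ± 26.6 CPM. The lowest *Scx* among these larger groups was in 511 cells led by *S100a4* and *Palmd*, at 260, 272, 301 and 284 CPM. The same cells had the highest mean *Sox9* of the tenocyte-like groups, at 90.1, 133, 63.8 and 115 CPM, against 13.1 ± 5.82 in the *Col22a1* group, with no overlap between them. They were also high in *Sox6* (264 ± 46.7 CPM, against 128 ± 7.97) and held 117 of the 146 tenocyte-like *Barx1* UMIs (26.9 ± 15.5 CPM). Of the fixed markers, 5 of 12 for cartilage and 2 of 12 for tendon stood out in them against the other tenocyte-like cells. Their share of tenocyte-like cells was 21.6, 25.1, 11.9 and 36.1% in the 4 libraries, and *Sox9* over all tenocyte-like cells (33.3, 45.6, 19.9 and 49.6 CPM) took the same order. Small groups of 74 and 32 cells carried fibroblast or myogenic genes on median depths of 17928 and 17352 UMIs. Since the groups were cut from these same cells, their levels are a description and were not tested.

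**Figure D1:**
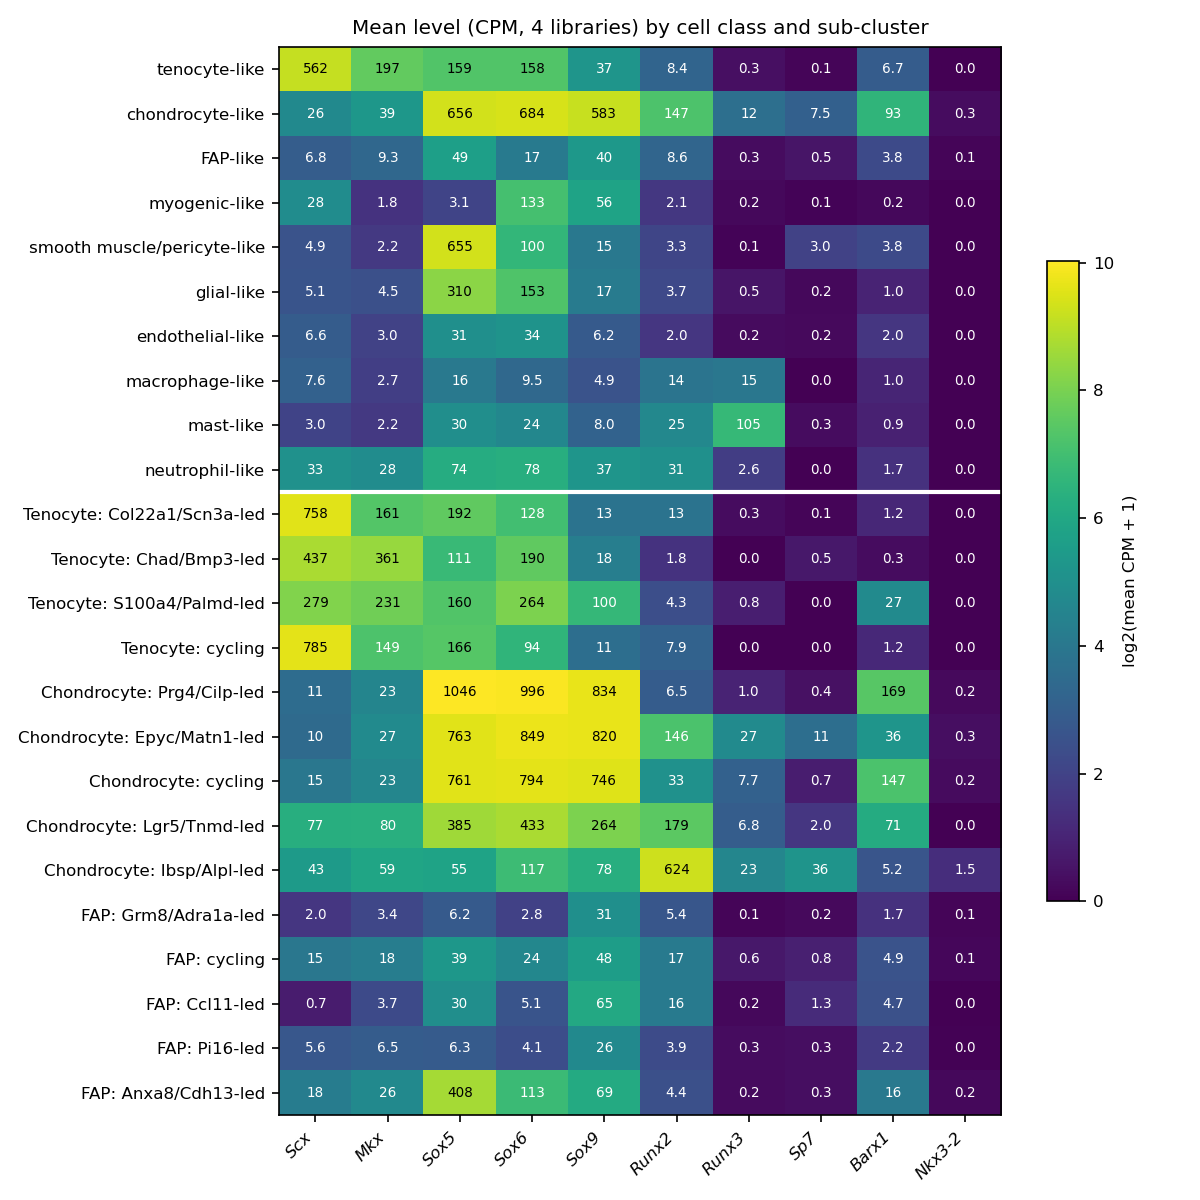
Mean level of each of the 10 genes over the 4 libraries, in CPM as printed in each cell with the colour as log2(mean CPM + 1), across the named cell classes and the tenocyte-, chondrocyte- and FAP-like sub-clusters. *Scx* and *Mkx* peak in tenocyte-like groups, *Sox9* and *Sox6* in chondrocyte-like groups, *Sox5* in chondrocyte-like and smooth muscle or pericyte cells, *Runx2* and *Sp7* in the *Ibsp* group and *Runx3* in mast cells.

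*Sox9* marked chondrocyte-like cells, at 611.2, 637.3, 506.8 and 578.0 CPM (583 ± 56.5), 10.5-fold above myogenic cells. No library of another class reached this range, and the 2 KO values were the lowest of the 4. *Sox9* was found in 75.2% ± 4.81 of chondrocyte-like cells at 5000 UMIs, against 1.57% of endothelial and 0.720% of macrophage cells. A low level ran through several other classes. Myogenic cells had 55.6 ± 7.26 CPM, FAP-like cells 40.2 ± 5.79 and tenocyte-like cells 37.1 ± 13.4, each neighbour overlapping the next. All 3 lay above endothelial cells (6.24 ± 3.22 CPM) in every library. Chondrocyte-like cells held 44.0% of *Sox9* UMIs, FAP-like cells 32.3% and myogenic cells 16.3%.

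*Sox5* and *Sox6*, the close relatives that lack an activation domain of their own and support SOX9 on cartilage genes, had wider patterns. *Sox6* was highest in chondrocyte-like cells, at 701.8, 704.0, 683.8 and 646.8 CPM (684 ± 26.5), and this was 4.32-fold above tenocyte-like cells (158 ± 15.4). Tenocyte-like, glial (153 ± 16.3) and myogenic cells (133 ± 4.74) followed without a gap larger than their spread. Within the myogenic class *Sox6* ranged from 77.2 ± 6.35 to 318 ± 10.9 CPM, the high value coming from 1347 cells in which 10 of 12 myogenic markers stood out.

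*Sox5* was about equally high in 2 classes. Smooth muscle or pericyte cells measured 724.6, 664.1, 641.6 and 590.1 CPM (655 ± 55.8) and chondrocyte-like cells 667.7, 731.8, 617.8 and 607.7 CPM (656 ± 56.8), and these ranges overlapped. *Sox5* was found in 85.2% of smooth muscle or pericyte cells at 5000 UMIs, against 2.94% of macrophages. The pattern parted from that of *Sox9*, which had only 13.3 to 16.6 CPM in smooth muscle or pericyte cells, and from that of *Sox6* (99.8 ± 11.0 CPM there). Glial cells had 310 ± 15.3 CPM of *Sox5* and tenocyte-like cells 159 ± 11.1. Myogenic cells, by contrast, had 3.13 ± 0.788 CPM of *Sox5* against 133 CPM of *Sox6*. The introns of *Sox5* (chr6:143828425-144781977, minus strand) hold antisense genes, of which *Sox5os4* reached 35.5 ± 6.66 CPM in smooth muscle or pericyte cells and 3.48 ± 1.98 CPM in chondrocyte-like cells.

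Among FAP-like cells, *Sox5* was concentrated in 1655 cells led by *Anxa8* and *Cdh13*. It measured 421, 433, 361 and 415 CPM there, against 6.21 ± 0.656 CPM in the largest FAP-like group of 8149 cells. The leading genes of that largest group began with *Acta1*, *Tnnc2*, *Myl1* and *Mylpf*. In it 1 of 13 FAP and 1 of 12 myogenic markers stood out against the other FAP-like cells. *Sox5* and *Sox6* were not used to make the groups, yet both stood among the 10 leading genes of the *Anxa8*-led one. The same *Anxa8*-led cells had *Sox6* at 113 ± 23.8 CPM, *Sox9* at 69.2 ± 16.4, *Mkx* at 26.0 ± 6.57, *Scx* at 17.7 ± 6.46 and *Barx1* at 15.7 ± 5.06, and 6 of 12 tendon, 3 of 12 cartilage and 0 of 13 FAP markers stood out in them against the other FAP-like cells. They made up 7.77, 13.3, 2.74 and 12.2% of FAP-like cells, lowest in KO replicate 1. *Sox5* in FAP-like cells as a whole took the same order, at 46.9, 69.2, 18.3 and 63.2 CPM. *Sox9* was about as high in 1718 *Ccl11*-led cells, at 65.5 ± 9.23 CPM, in which 8 of 11 smooth muscle or pericyte and 1 of 13 FAP markers stood out against the other FAP-like cells, and lowest in 4312 cells around the *Pi16* markers, at 26.2 ± 5.76 CPM.

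**Figure D2:**
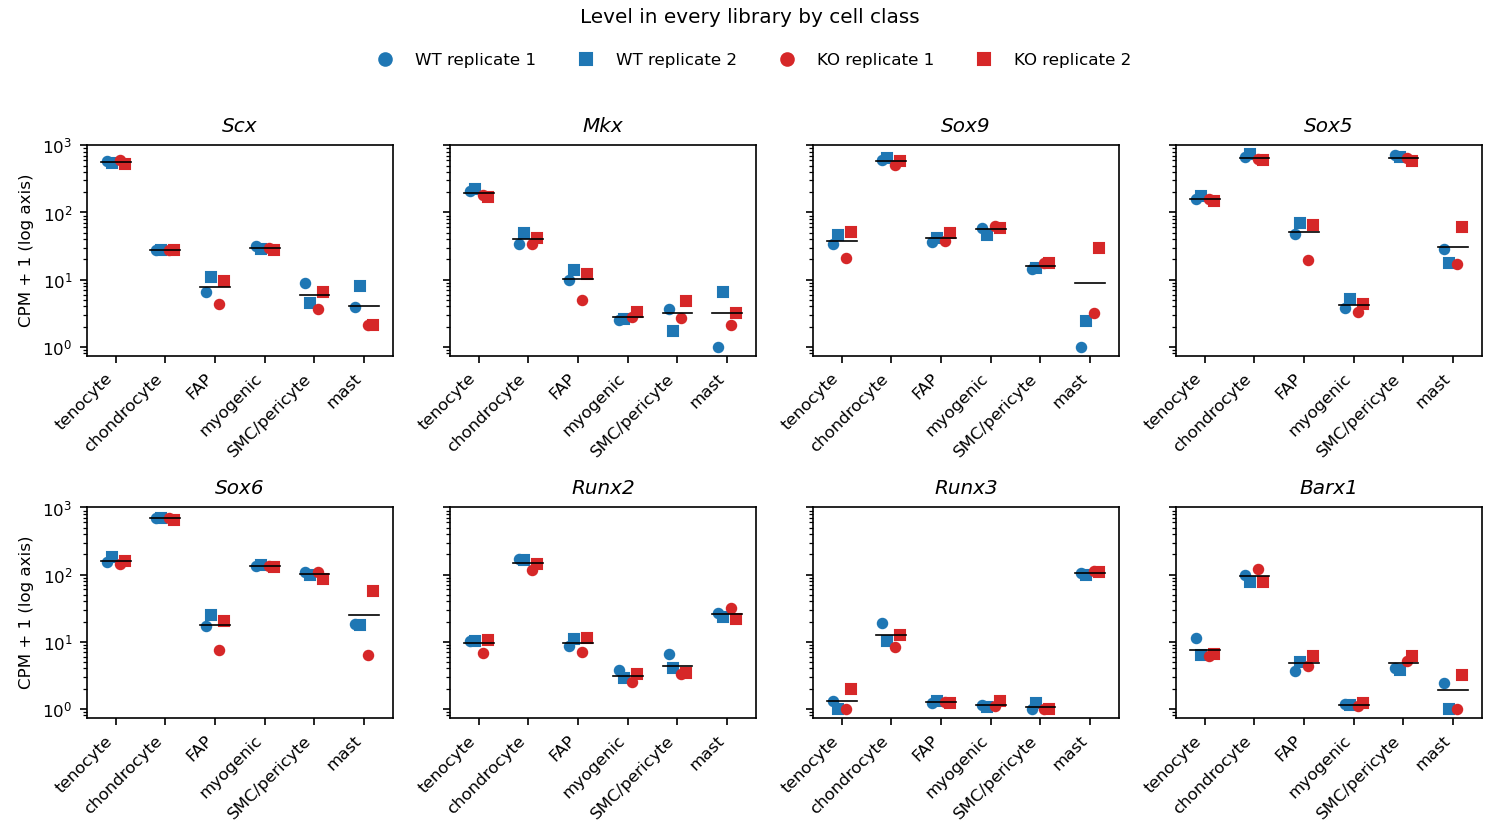
Level of 8 of the genes in every library, as CPM + 1 on a log axis, in 6 cell classes along the horizontal axis, with WT in blue, KO in red and the mean as a line. *Scx* in tenocyte-like cells (519.1 to 594.7 CPM) and *Sox9* in chondrocyte-like cells (506.8 to 637.3 CPM) stand clear of all other classes, and for these the WT and KO points lie close together. Libraries lie further apart elsewhere, such as for *Mkx* in FAP-like cells (3.95 to 13.1 CPM).

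*Runx2*, needed for bone formation and for hypertrophy of cartilage, was highest in chondrocyte-like cells at 168.3, 164.4, 115.8 and 141.5 CPM (147 ± 24.2), 4.69-fold above neutrophil-like cells (31.5 ± 9.69), and the 2 KO values were the lowest. Mast cells had 24.8 ± 4.28 CPM and macrophages 13.6 ± 5.09, while FAP-like (8.57 ± 2.13) and tenocyte-like cells (8.44 ± 1.77) overlapped. *Runx2* (chr17:44495987-44814797, minus strand) overlaps *Supt3* on the opposite strand. *Supt3* was also highest in chondrocyte-like cells among the 6 classes compared, at 80.1, 83.2, 53.2 and 61.6 CPM, with the same order of genotypes, against 37.0 ± 2.99 CPM in tenocyte-like cells.

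*Runx3*, known from T cells, sensory neurons and cartilage, was highest outside the skeleton. Mast cells had 104.3, 97.0, 111.3 and 106.8 CPM (105 ± 5.96), 7.05-fold above macrophages (14.9 ± 6.21), and held a mean of 40.5% of its UMIs. Chondrocyte-like cells followed at 11.7 ± 4.73 CPM, overlapping macrophages, and held 28.2%.

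*Sp7*, which acts after *Runx2* in bone-forming cells, was sparse, with 351 UMIs over all kept cells. Chondrocyte-like cells had 8.04, 10.1, 4.71 and 7.11 CPM (7.50 ± 2.25), and smooth muscle or pericyte cells, the next class, 2.98 ± 0.702 CPM on 55 UMIs. In chondrocyte-like cells 4.19% ± 1.17 of cells held an *Sp7* UMI.

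*Barx1* was almost as selective for chondrocyte-like cells as *Scx* was for tenocyte-like cells. Its values were 97.4, 77.8, 121.8 and 75.7 CPM (93.2 ± 21.5), 14.0-fold above tenocyte-like cells at 6.65 ± 2.60, with WT and KO interleaved. *Nkx3-2* gave 26 UMIs in all, of which 19 were in FAP-like and 7 in chondrocyte-like cells, so that its pattern was not detectable at this depth.

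Chondrocyte-like cells split into groups that used these factors differently. In 721 cells led by *Prg4*, the lubricin gene of joint surfaces, and *Cilp*, *Sox9* was at 823, 847, 783 and 883 CPM, with *Sox5* at 1046 ± 84.8, *Sox6* at 996 ± 103 and *Barx1* at 169 ± 35.4. *Runx2* was low in them, at 6.49 ± 3.76 CPM. A cycling group of 243 cells had *Sox9* at 746 ± 77.6 CPM and *Barx1* at 147 ± 52.5.

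The opposite pattern was seen in 280 cells led by *Ibsp* and *Alpl*, genes of bone matrix and mineralisation. Against the other chondrocyte-like cells, 0 of 12 cartilage, 5 of 10 osteoblast and 6 of 13 FAP markers stood out in them, and they are in the class by their parent cluster. *Ibsp* gave 70, 1142, 0 and 2535 UMIs and *Alpl* 65, 181, 12 and 185 UMIs in this group, so KO replicate 1 held none of the first leading gene. *Runx2* reached 785, 769, 327 and 616 CPM there and *Sp7* 35.7, 57.9, 17.4 and 31.9 CPM, both lowest in KO replicate 1, which supplied 38 of the cells. *Sox9* (78.3 ± 34.8 CPM), *Sox5* (55.4 ± 7.09) and *Barx1* (5.19 ± 1.55) were the lowest of the larger chondrocyte-like groups, while *Runx3* was at 23.4 ± 6.30 CPM.

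Both sets were present in 440 cells led by *Epyc*, *Matn1* and *Snorc*, genes of the growth plate cartilage matrix. *Sox9* and *Runx2* were also found together in the *Lgr5*- and *Tnmd*-led group described below. *Sox9* was at 781, 1016, 707 and 775 CPM, *Sox5* at 763 ± 133 and *Sox6* at 849 ± 28.4, and beside them *Runx2* was at 231, 146, 70.7 and 135 CPM. *Runx3* measured 47.4, 21.6, 20.2 and 18.49 CPM and overlapped the *Ibsp* group, and *Sp7* measured 16.1, 13.4, 5.05 and 10.5 CPM. The 4 libraries gave 104, 134, 27 and 175 of these cells, and WT replicate 1 was highest in all 3 of *Runx2*, *Runx3* and *Sp7*. *Runx3* was found in 13.0% of the *Epyc*-led cells, against 7.29% of all chondrocyte-like cells and 10.5 to 19.5% of *Ibsp*-led cells over the libraries. *Barx1* was lower than in the *Prg4* group, at 36.3 ± 14.8 CPM.

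Another group carried tendon and cartilage factors together. In 513 cells led by *Lgr5* and *Tnmd*, *Scx* measured 86.8, 75.3, 68.9 and 75.5 CPM, against 10.6 ± 1.62 CPM in the *Prg4* group, with no overlap. The *Ibsp* group had *Scx* at 62.4, 22.5, 41.8 and 44.8 CPM. In the *Lgr5*-led cells *Sox9* was lower (264 ± 25.8 CPM), *Runx2* was 179 ± 3.91 and *Barx1* 71.2 ± 21.9. *Mkx* was 79.7 ± 23.5 and overlapped the *Ibsp* group (35.5 to 71.3 CPM). Against the other chondrocyte-like cells, 0 of 12 cartilage, 4 of 12 tendon and 3 of 6 perichondrium or periosteum markers stood out in them. The last group, 102 cells with a median of 18595 UMIs, carried myogenic and fibroblast genes beside *Sox9* at 368 ± 71.1 CPM.

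**Figure D3:**
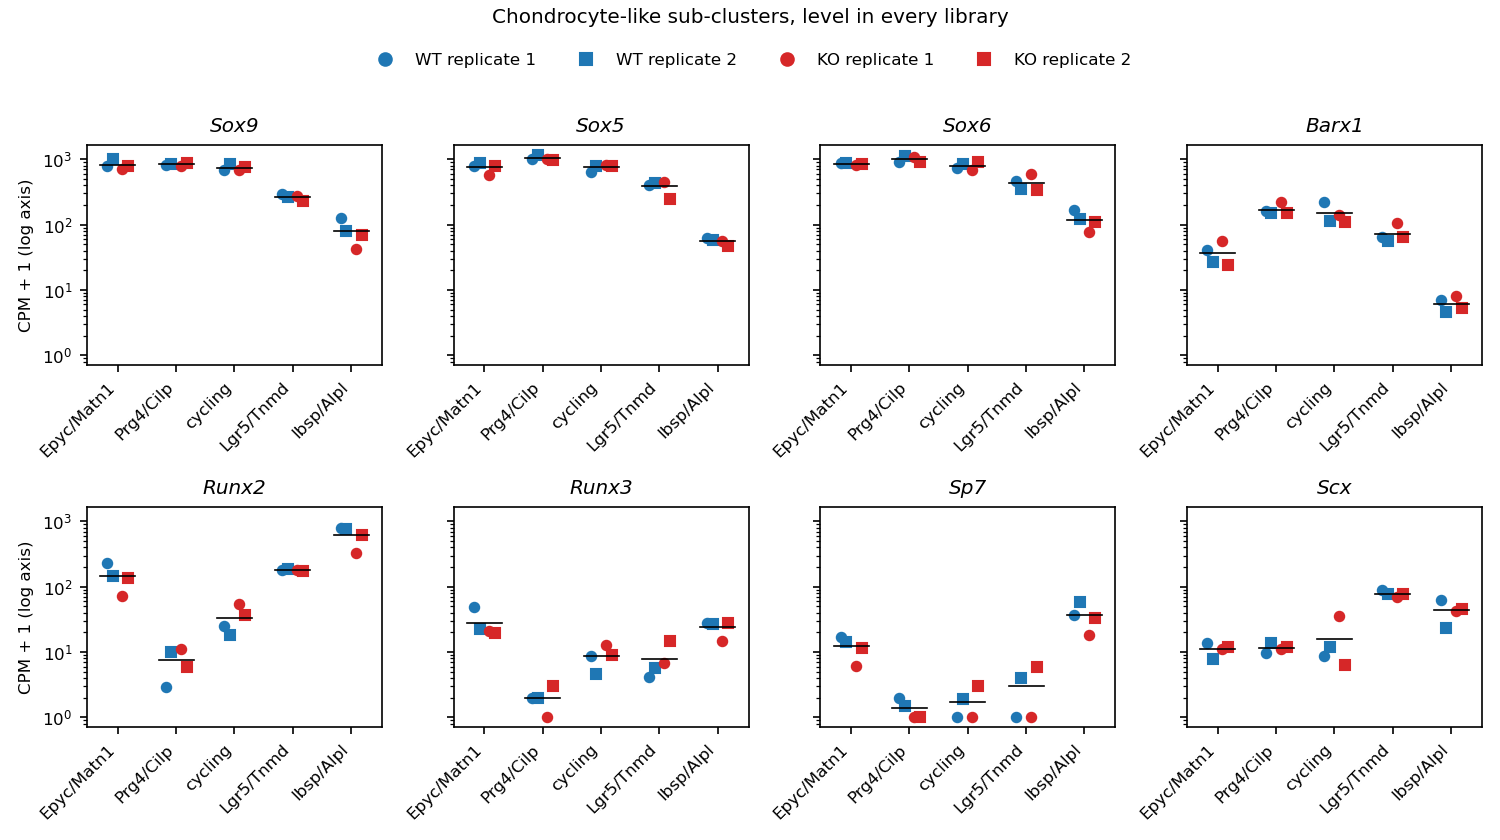
Levels of 8 of the genes, as CPM + 1 on a log axis, in 5 chondrocyte-like sub-clusters, with WT libraries in blue, KO libraries in red and the mean as a line. *Runx2* and *Sp7* are highest in the *Ibsp* group. *Runx2* is intermediate in the *Lgr5* and *Epyc* groups and *Sp7* in the *Epyc* group. *Sox9* is high in the *Prg4*, *Epyc* and cycling groups, *Barx1* in the *Prg4* and cycling groups, and *Scx* in the *Lgr5* group.

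Across 14 groups (the named classes and the fibroblast sub-clusters), the genes whose mean log2(CPM + 1) followed each factor most closely were listed. *Scx* was followed by *Cacna2d2* (Pearson r = 0.90), *Zfp185* (r = 0.87) and *Kirrel3* (r = 0.85), and *Mkx* by *Zfp185* (r = 0.93), *Chst5* (r = 0.91) and *Kera*, a tendon and corneal proteoglycan (r = 0.91). *Sox9* was followed by *Sdk2* (r = 0.95), *Fgfrl1* (r = 0.92) and *Spata1* (r = 0.91), and *Barx1* by *Tnn* (r = 0.95), *Pianp* (r = 0.94) and *Epyc*, a cartilage proteoglycan (r = 0.93). *Runx2* had *Rab11fip4* (r = 0.88), *Lbhd2* (r = 0.82) and *Notum* (r = 0.81), and *Runx3* had *Bfsp2* (r = 0.92), *Map2k3os* (r = 0.92) and *Acer3* (r = 0.91). For *Sox5* the nearest were *9330188P03Rik* (r = 0.83), *Cpm* (r = 0.82) and *Sox5os4* (r = 0.82), the last an antisense gene inside it, and for *Sox6* *Aopep* (r = 0.85), *Msi2* (r = 0.84) and *Gm26749* (r = 0.84). Among the 10 genes themselves, *Scx* and *Mkx* had r = 0.82, *Sox9* and *Barx1* r = 0.76, *Sox5* and *Sox6* r = 0.71, and *Sox9* and *Runx3* r = -0.14. The pair of *Barx1* and *Nkx3-2* had r = 0.83, resting on the 26 UMIs of *Nkx3-2*. The groups share libraries and some are subsets of the FAP-like class, so these values only describe.

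To determine whether *Scx* and *Sox9* occurred in the same cells, each cell was thinned to 5000 UMIs and the 226 chondrocyte-like and 123 tenocyte-like cells below this depth were left out. In tenocyte-like cells both genes were found in 8.35, 8.96, 6.47 and 9.63% of cells, with exact Clopper-Pearson 95% intervals from 4.31 to 9.28% for the lowest library and from 7.24 to 12.5% for the highest. In chondrocyte-like cells the shares were 6.15, 6.30, 9.03 and 6.16%, the highest of them from 155 cells with an interval from 5.03 to 14.7%. These intervals cover counting error only, and they overlapped within each class. In endothelial cells and macrophages both genes were found together in 0 to 0.442% of a library's cells.

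Co-detection was less frequent than the shares of the single genes would give if cells carried them independently. In tenocyte-like cells 167 of 1977 cells held both, where independence within each library gave 198, a ratio of 0.84 (0.79 to 0.92 over the libraries). *Sox9* was found in 10.1, 11.1, 7.52 and 12.3% of cells with *Scx* and in 15.8, 24.7, 12.1 and 27.4% of cells without it, the latter higher in every library. In chondrocyte-like cells the ratio was 0.77 (0.73 to 0.90), with both genes in 133 of 2073 cells and 173 given by independence. There *Sox9* was found in 63.9, 57.7, 63.6 and 54.5% of cells with *Scx* and in 83.7, 76.0, 71.4 and 77.0% of cells without.

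Of the tenocyte- and chondrocyte-like groups, ratios are given for those led by *S100a4*, *Lgr5* and *Ibsp*, and not all were close to 1. The *S100a4*- and *Palmd*-led tenocyte-like cells gave 1.04, with both genes in 94 of 483 cells, and the *Lgr5*- and *Tnmd*-led chondrocyte-like cells gave 1.01, with 69 of 436. In the *Ibsp*-led cells the ratio was 0.35, on 4 cells. Myogenic cells, of which 12.4% held *Scx* and 21.6% held *Sox9*, gave 1.01. In FAP-like cells the ratio was 1.57 (1.29 to 2.18) on 91 of 17922 cells, and 43 of these cells lay in the *Anxa8*-led group. A ratio within a class depends on how the class was cut, and none was tested.

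**Figure D4:**
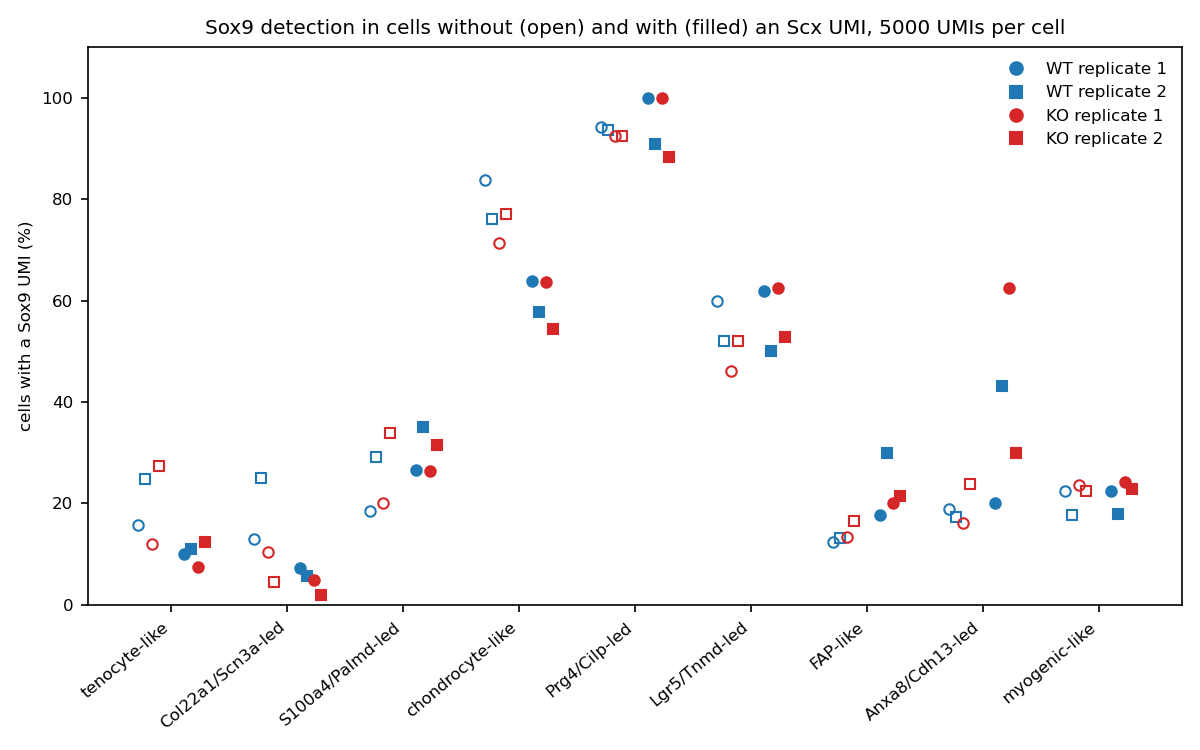
Share of cells, in percent, with at least 1 *Sox9* UMI among cells without (open symbols) and with (filled symbols) an *Scx* UMI, after thinning to 5000 UMIs, for 9 classes and sub-clusters with a symbol for each library. In tenocyte- and chondrocyte-like cells the filled symbols lie below the open ones in every library (54.5 to 63.9% against 71.4 to 83.7% in chondrocyte-like cells), and in the *S100a4*- and *Lgr5*-led groups they overlap.

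Ratios of other pairs are given by class, but a ratio has a low ceiling where a gene is found in most cells. *Scx* and *Mkx* had 1.00 in tenocyte-like cells (849 cells with both), 1.73 in chondrocyte-like cells and 8.28 in FAP-like cells. After thinning, *Scx* was found in 78.2 to 86.1% of a library's tenocyte-like cells and 1.21 to 2.98% of its FAP-like cells. Ratios of different classes therefore cannot be ranked against each other. The tenocyte-like value also pools groups that differ in both genes, so it does not show independence. *Sox5* and *Sox6* had ratios of 1.05, 1.12 and 4.90 in tenocyte-, chondrocyte- and FAP-like cells. In chondrocyte-like cells *Runx2* was found with *Sp7* 3.40 times as often as independence gave (44 cells) and with *Runx3* 2.88 times (58 cells), but with *Sox9* only 0.67 times. *Barx1* and *Sox9* had 1.15 in chondrocyte-like cells and 2.87 in tenocyte-like cells, the latter on 16 cells.

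To assess the effect of *SYISL* knockout, the UMI sums of each class were compared between the genotypes, library against library, by edgeR's quasi-likelihood test over all genes that passed the filter on low counts, with Benjamini-Hochberg adjustment. No member passed an adjusted p of 0.05 in any comparison. In bulk sums over a class, fewer cells carrying a gene and less RNA per cell cannot be told apart.

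In tenocyte-like cells 7 of the 10 genes could be tested and 0 were called, where 0% of the 12948 genes tested were called. *Scx*, with 592.1 and 540.7 CPM in WT and 594.7 and 519.1 in KO, had a log2 fold change (KO over WT) of 0.01 (SE 0.10), and its groups overlapped. *Mkx* had -0.28 (SE 0.09), unadjusted p = 0.0141 and adjusted p = 0.999, with no overlap of WT and KO. It was the only one of the 7 with an unadjusted p under 0.05, and DESeq2 called 0 as well. *Sox5* and *Sox6* had log2 fold changes of -0.09 each (SE 0.09 and 0.11) and *Sox9* -0.12 (SE 0.33). *Sox9* moved with KO replicate 2. Without that library its value was -0.96 with an adjusted p of 0.149, a fit in which KO replicate 1 alone stands for the genotype and which leaves out the library with the largest share of *S100a4*- and *Palmd*-led cells. *Mkx* was the 1 gene of the 7 with KO wholly below WT, as were 19.2% of all genes tested.

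In chondrocyte-like cells 9 of the 10 could be tested and 0 were called by edgeR or DESeq2, with 0% called among 13341 genes. *Runx2* had a log2 fold change of -0.35 (SE 0.13), unadjusted p = 0.0286 and adjusted p = 1.00, the only one under 0.05 before adjustment. *Sox5* had -0.19 (SE 0.11), *Sox9* -0.20 (SE 0.12), *Sox6* -0.08 (SE 0.11) and *Barx1* 0.11 (SE 0.21). *Scx* and *Mkx*, low in these cells, had -0.01 (SE 0.16) and -0.10 (SE 0.19), and *Runx3* -0.33 (SE 0.36). KO was wholly below WT for 6 of 9 genes (*Scx*, *Sox5*, *Sox6*, *Sox9*, *Runx2* and *Sp7*), against 15.5% of all genes tested, but the 6 genes share the same 4 libraries. The gap was narrow for *Scx* (26.5 and 26.7 CPM in WT, 26.2 and 26.3 in KO). It was wider for *Sp7* (8.04 and 10.1 CPM in WT, 4.71 and 7.11 in KO), which rests on 7 UMIs in KO replicate 1. KO replicate 1 gave 182 chondrocyte-like cells, and the makeup of the class differed between libraries, with *Ibsp*-led cells at 9.30, 10.9, 20.9 and 12.6% (those of KO replicate 1 with 0 *Ibsp* UMIs) and *Epyc*-led cells at 26.1, 19.0, 14.8 and 17.2%. The part of these shares in the fold changes was not tested.

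The other cartilage genes lay on the same side. All 18 genes of a fixed cartilage list had log2 fold changes below 0 in chondrocyte-like cells, with a median of -0.49 against -0.0028 over all genes tested. None was called by edgeR, and 7 had an unadjusted p under 0.05. *Col2a1* measured 11781, 7295, 5246 and 8051 CPM (log2 fold change -0.53, SE 0.26), with KO replicate 2 above WT replicate 2. *Col11a1* had -0.29 (SE 0.17) and *Hapln1*, which links proteoglycans to hyaluronan, -0.30 (SE 0.16). Summed over 12 cartilage markers, WT replicate 1 stood highest at 22835 CPM, against 15158 in WT replicate 2 and 10685 and 16238 in KO, so the WT libraries differed from each other more than WT replicate 2 differed from KO replicate 2. Of 15 hypertrophy and bone genes 12 could be tested, 11 of them were lower in KO and the median was -0.36, with *Spp1* at -0.02 (SE 0.21), *Mef2c* at -0.34 (SE 0.15) and *Ibsp*, the 1 gene higher in KO, at 0.85 (SE 1.03). *Ibsp* itself was at 20.7, 157, 0.673 and 285 CPM, so its libraries of either genotype lay far apart. Of 27 partner transcription factors 23 could be tested, with 9 higher, 14 lower and a median of -0.03, and the 19 tendon genes had 10 higher and 9 lower with a median of 0.03. Erythroid markers summed to 351.3 CPM in KO replicate 2 and to at most 29.5 CPM in the other libraries, and their part in these values was not tested.

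In tenocyte-like cells the 19 tendon genes had 6 higher and 13 lower in KO, with a median of -0.08 against 0.01 over all genes, and 0 were called. *Col1a1* had -0.08 (SE 0.08), *Col1a2* -0.13 (SE 0.09) and *Col3a1* 0.21 (SE 0.10), the fibrillar collagens that *Scx* and *Mkx* are known to act on. Of 18 cartilage genes 15 could be tested there, with 14 lower and a median of -0.39. The 12 cartilage markers summed to 379, 521, 302 and 414 CPM there, lowest in KO replicate 1, the library with the smallest share of *S100a4*- and *Palmd*-led cells, and with KO replicate 2 above WT replicate 1. The 22 partner factors had a median of 0.05.

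**Figure D5:**
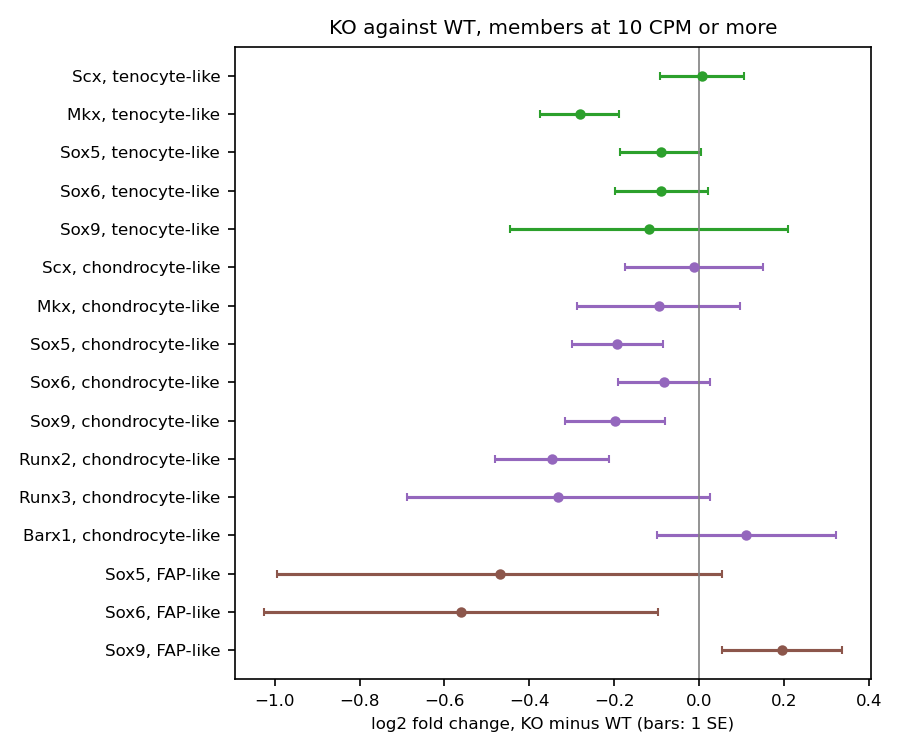
Log2 fold change (KO minus WT on the log2 scale) from edgeR, with bars of 1 SE, for each member with at least 10 CPM that passed the filter in tenocyte-, chondrocyte- and FAP-like cells. *Scx* in tenocyte-like cells lies at 0.01 and *Mkx* at -0.28, 7 of the 8 chondrocyte-like values lie below 0, and no adjusted p passed 0.05.

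In FAP-like cells 9 genes could be tested and 0 were called by edgeR or DESeq2, none with an unadjusted p under 0.05, with 0% called among 18385 genes. *Sox5* had a log2 fold change of -0.47 (SE 0.52), *Sox6* -0.56 (SE 0.46) and *Sox9* 0.20 (SE 0.14). The large errors of *Sox5* and *Sox6* came with KO replicate 1, where *Sox5* was at 18.3 CPM and *Anxa8*-led cells were 2.74% of the class. Within *Anxa8*-led cells *Sox5* had -0.13 (SE 0.11). KO was wholly below WT for *Sox5* in these cells and in the largest, cycling and *Ccl11*-led FAP-like groups, but not in *Pi16*-marked cells. Across these sub-clusters 30.9 to 36.1% of all genes had WT and KO apart in either direction. The part of the *Anxa8*-led share in the *Sox5* value was not tested. No member had WT and KO libraries apart in FAP-like cells as a whole, where 31.0% of all genes did in either direction. FAP-like cells gave 15 of 18 cartilage genes lower, with a median of -0.31 against -0.0011 over all genes. Their low library was KO replicate 1, since the 12 cartilage markers summed to 56.2, 101, 26.0 and 97.0 CPM. The medians were -0.02 for tendon genes and 0.05 for partner factors.

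Over all kept cells *Scx* measured 49.2, 45.3, 34.8 and 37.8 CPM, with no overlap of WT and KO, a log2 fold change of -0.33 (SE 0.08), unadjusted p = 0.00782 and adjusted p = 0.946. Tenocyte-like cells were 6.53, 6.37, 4.60 and 5.46% of kept cells, lower in both KO libraries, and the part of this share in the *Scx* value was not tested. *Mkx* had -0.57 (SE 0.24) over all cells. These were the 2 of 9 genes with KO below WT, as were 26.1% of all genes, and 0 of 9 were called by edgeR or DESeq2, where 0% of 20419 genes were called by edgeR. Leaving out KO replicate 2 called *Mkx* (-0.96, adjusted p = 0.0417) and *Sox5* (-0.79, adjusted p = 0.0417), in a fit that called 0.277% of genes.

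The same test in the other 6 classes and 5 FAP-like sub-clusters gave 70 gene and class pairs, with 0 called. The background was 0.0170% of genes called in endothelial cells, 0.0982% in mast cells, 0.143% in smooth muscle or pericyte cells and 0% in the rest. Of 35 pairs with at least 10 CPM, 15 were higher and 20 lower in KO, from -1.16 to 0.83, and 3 had an unadjusted p under 0.05, with a smallest adjusted p of 0.707. The first was *Sox5* in macrophages, at 23.3, 20.2, 11.0 and 8.11 CPM on 193 UMIs (-1.16, SE 0.24). Macrophages served above as the low class for *Sox5*, yet their mean of 15.6 ± 7.24 CPM lay 4.99-fold above myogenic cells without overlap. No background level was estimated, and how much of the macrophage value is background was not tested. The second was *Sox5* in *Ccl11*-led cells (-0.60, SE 0.18), which reached an adjusted p of 0.00995 (log2 fold change -0.72) without WT replicate 2, a fit that called 0.984% of genes. In that group 8 of 11 smooth muscle or pericyte markers stood out against the other FAP-like cells. Smooth muscle or pericyte cells themselves held *Sox5* at 724.6 and 664.1 CPM in WT and 641.6 and 590.1 in KO, and the part of such cells in the change was not tested. The last was *Sox9* in *Pi16*-marked cells, at 18.6, 25.1, 31.5 and 29.7 CPM (0.50, SE 0.14), with KO above WT. With no filter on low counts *Sox5* in macrophages and *Sox9* in *Pi16*-marked cells had adjusted p = 0.00481 and 0.0444, in fits that called 0.830% and 0.408% of genes. *Runx3* in mast cells had 0.11 (SE 0.17).

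Cycling FAP-like cells, 3001 in number, gave the most calls under other settings. *Scx* measured 12.2, 26.8, 6.03 and 14.1 CPM there, so that WT and KO overlapped. When KO replicate 2 was left out, *Scx* (-1.70), *Mkx* (-1.87), *Sox5* (-1.24) and *Sox6* (-2.07) were all 4 called (adjusted p = 0.00796 for *Scx*, the largest), where 0.734% of genes were called. In that fit KO replicate 1 is the lone KO library and is assumed to vary like WT. With all 4 libraries and no filter on low counts *Scx* (-0.91), *Mkx* (-0.90) and *Sox6* (-0.72) were called, where 0.396% of genes were.

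Whether the knockout acted differently in tenocyte-like and chondrocyte-like cells was tested as an interaction with library as a block. Of the 9 members tested 0 were called and 0 had an unadjusted p under 0.05, where 0% of 13926 genes were called and DESeq2 called 0 members. The difference in log2 fold change was -0.02 (SE 0.15) for *Scx*, -0.22 (SE 0.19) for *Mkx*, 0.04 (SE 0.29) for *Sox9*, 0.18 (SE 0.21) for *Runx2* and -0.62 (SE 0.31) for *Barx1*. Co-detection of *Scx* and *Sox9* averaged 8.66% in WT and 8.05% in KO tenocyte-like cells, a difference of -0.602 percentage points (exact two-sided permutation test, p = 1.00). In chondrocyte-like cells it averaged 6.22% and 7.60%, a difference of 1.37 points (exact permutation p = 0.667). With 2 libraries against 2 the smallest p this exact test allows is 0.333.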

How the data were processed

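Leg muscle cells of 2 WT and 2 KO libraries (10x Genomics 3′ v3 chemistry) were analysed. The deposited values were raw UMI counts per gene and cell, which the authors made with Cell Ranger 7.2.0 on mm10 per the labels. Whether intronic reads were counted was not given in the sources used here. Deposited totals were 109653824 to 126257094 UMIs per library.

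Cells passed with 1000 to 6000 genes, 1000 to 25000 UMIs and a mitochondrial share below 8%. They were clustered with scanpy 1.11.5 (3000 variable genes without the 10 members, 30 principal components, 20 exact nearest neighbours, Leiden resolution 0.3, igraph 0.11.9). Single Leiden starts gave classes of different sizes, so, after the data were seen, 30 starts were run and the partition most like the others was kept (mean adjusted Rand index 0.860). Of these starts 12 put the tenocyte-like class and 13 the chondrocyte-like class within 10% of the size used. Libraries were not integrated, whereas the study used Harmony. Clusters were named from marker lists by a rule set after the data were seen, so classes may differ from the study's, and 474 cells stayed unnamed. Scrublet marked 135 to 251 cells per library as doublets, which were kept in the main results and removed in an alternative. The members and gene lists were chosen with earlier results of these data known.

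CPM was taken from the UMI sums of a class in each library. KO and WT sums were tested by the quasi-likelihood method of edgeR 4.0.16 in R 4.3.3, after TMM scaling and filterByExpr, with Benjamini-Hochberg adjustment over all genes and a threshold of 0.05. DESeq2 1.42.0 was an alternative. Classes had at least 50 cells in each library. The edgeR step was first tested on simulated data. Co-detection used cells thinned to 5000 UMIs and an exact permutation test, two-sided, over 6 arrangements. Fold changes are named for members with at least 10 CPM, and, for each list, for its called genes or else its 3 highest by CPM. Members called only under an alternative are named at any level. The 3 genes most like a member were taken among genes with at least 20 CPM in a group. Levels across classes were not tested, since the classes were made from the same cells. Gene positions are from GENCODE vM21 (GRCm38), and some coordinates are not reported here.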

Additional observations from a re-analysis of the deposited data

Results flagged for a closer look

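*Sox5*, *Sox6* and *Sox9* each had a class in which the KO libraries were wholly above WT and another in which they were wholly below, so that every library of the classes moved in opposite directions. For *Sox5* the log2 fold change was 0.11 (SE 0.09) in glial and -1.16 (SE 0.24) in macrophage cells, a difference of 1.27. For *Sox6* it was 0.20 (SE 0.11) in glial and -0.08 (SE 0.11) in chondrocyte-like cells, a difference of 0.28. For *Sox9* it was 0.50 (SE 0.14) in *Pi16*-marked FAP-like and -0.20 (SE 0.12) in chondrocyte-like cells, a difference of 0.70. The pairs given are the extremes. *Sox5* was also wholly lower in chondrocyte-like and in smooth muscle or pericyte cells. The same held in the largest FAP-like group of 8149 cells and in cycling, *Ccl11*-led and *Anxa8*-led FAP-like cells. *Sox5* was wholly higher in 1 group, and how much of its macrophage value is background was not tested. These differences were not tested, the single values did not pass an adjusted p of 0.05, and WT and KO libraries lay apart in either direction for 31.8% of all genes in glial, 32.0% in macrophage, 28.2% in chondrocyte-like and 31.2% in *Pi16*-marked cells.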

How the results depend on the processing

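Over the alternatives (size factors, DESeq2, filters on low counts, cell filters, clustering choices, doublet removal, the replicate block and leaving out each library), the 21 named fold changes gave 266 values with the same direction and side of the threshold, 21 in the other direction and 3 newly called. The Leiden start of highest modularity, with 1245 tenocyte-like and 3569 chondrocyte-like cells, was added as an alternative after seeing the data. No member was called in tenocyte-, chondrocyte- or FAP-like cells or for the difference between classes under any alternative. Leaving out 1 library gave 0 to 2 members over all cells (*Mkx* and *Sox5* without KO replicate 2) and 0 to 4 pairs in the other classes. Those pairs were *Scx*, *Mkx*, *Sox5* and *Sox6* in cycling FAP-like cells without KO replicate 2, and *Sox5* (-0.72) and *Barx1* (3.10) in *Ccl11*-led cells without WT replicate 2, in fits that called 112 of 15253 and 134 of 13615 genes. *Barx1* was scarce in the *Ccl11*-led cells, with 4, 15, 23 and 51 UMIs (0.84 to 9.95 CPM), so its value rests on 4 WT UMIs. With no filter on low counts 6 pairs of the other classes were called: *Sox5* in macrophages (-1.16), *Sox9* (0.51) and *Barx1* (1.69) in *Pi16*-marked cells, and *Scx* (-0.91), *Mkx* (-0.90) and *Sox6* (-0.72) in cycling FAP-like cells, where 168, 95 and 93 genes were called in the 3 groups. *Barx1* had 7, 15, 36 and 47 UMIs in the *Pi16*-marked cells (0.70 to 4.31 CPM). Both *Barx1* values lie under the 10 CPM used for naming fold changes. With the replicate block 1 pair was called, *Scx* in cycling FAP-like cells (-0.93), in a fit that called 15 of 14799 genes.

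Direction was unstable for small values. *Scx* in chondrocyte-like cells was 0.067 and in tenocyte-like cells -0.073 with the start of highest modularity, and in tenocyte-like cells -0.0068 with no filter and -0.0025 with doublets removed. *Sox6* in chondrocyte-like cells was 0.020 at Leiden resolution 1, and *Sox9* in tenocyte-like cells 0.083 with members among the clustering genes. Leaving out 1 library gave ranges that crossed 0: in tenocyte-like cells *Scx* -0.10 to 0.10, *Sox6* -0.20 to 0.023 and *Sox9* -0.96 to 0.36, in chondrocyte-like cells *Scx* -0.048 to 0.018, *Mkx* -0.34 to 0.18, *Runx3* -0.86 to 0.20 and *Barx1* -0.18 to 0.46, and in FAP-like cells *Sox5* -1.63 to 0.16, *Sox6* -1.55 to 0.0153 and *Sox9* -0.0071 to 0.37. The difference in co-detection ranged from -2.18 to 0.977 points in tenocyte-like and from -0.0649 to 2.81 points in chondrocyte-like cells. It was 0.332 points in tenocyte-like cells with members kept, and in chondrocyte-like cells -2.82 without thinning and -0.0150 at 2000 UMIs. The cause was not tested.

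Over all genes, where edgeR called 0, DESeq2 called 9 in FAP-like cells and 51 over all cells, and no filter called 54 in chondrocyte-like cells and 23 for the difference between classes. The replicate block called 4, 2, 0 and 0 genes in tenocyte-like, chondrocyte-like, FAP-like and all cells, and 0 members in each. Same-numbered libraries deviated together only weakly (r = 0.12, 0.08, 0.20 and 0.19) and share only a number. Tenocyte-like cells numbered 1245 to 4140 and chondrocyte-like cells 1950 to 3569 under other clusterings and cell filters. Depth limits *Nkx3-2* (26 UMIs), *Sp7* and every class with few cells.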
